A study of Homo sapiens with 2 samples.

Results

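Nuclear tRNA genes were examined for contacts of Cas9 with cellular RNA in H1-iCas9, an inducible Cas9 line made from H1, which is an established line of human embryonic stem cells. The members were all genes of the tRNA biotype in RefSeq on chromosomes 1 to 22 and X. They number 443 of the 59716 genes in the table, and 27 of them held a crosslink region in at least 1 library. The class was selected on its number of genes with a region in these same libraries, 1 in replicate 1 and 27 in replicate 2, so these numbers are a description and carry no test. Cas9 fused to FLAG was induced with 1 µg/ml doxycycline for 24 hours, the cells received ultraviolet light of 254 nm at 300 mJ/cm2, and Cas9 was pulled down through FLAG. irCLIP then reads where reverse transcription stopped on the RNA joined to the protein. Both libraries, replicate 1 with 4204 regions and replicate 2 with 5995, belong to the same group, their labels name neither a guide RNA nor separate cultures, and no library without Cas9 and no RNA level was analysed here. Read depth is unknown, so every interval given is an exact (Clopper-Pearson) 95% interval that covers the counting of genes only. The genes of a library are not replicates, so whether intervals overlap or stand apart is no test of a difference.

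Transfer RNAs are the adaptors of translation. Each carries an amino acid at its 3′ end and reads a codon through the anticodon, which lies in a loop near the middle of the molecule. RNA polymerase III transcribes the genes from promoter boxes inside the gene, the leader and trailer are cut off, and in a few isotypes an intron next to the anticodon is spliced out. Genes whose mature tRNA is the same share an isodecoder number in the symbol, so TRD-GTC2-7 is copy 7 of the isodecoder TRD-GTC2, an aspartate tRNA with anticodon GTC.

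Where the anticodon and the 3′ part lie was read from RefSeq promoter windows (GRCh38.p14) of other genes that happen to contain a tRNA gene, 14 in number. Below, TRL-AAG2-2 is a leucine tRNA gene with a site just before its start. TRT-TGT6-1 (threonine) and TRI-TAT2-2 (isoleucine) held no region in either library and are shown as relatives with the anticodon of genes that did. Each run is 5′ to 3′ on the strand of the tRNA and begins 10 bases before the gene. The first capitals of TRT-TGT6-1 and TRI-TAT2-2 mark the anticodon, and the later capitals mark the bases whose count from the 3′ edge of the gene equals that of the sites in TRT-TGT2-1 (33 in replicate 2 and 32 in replicate 1) and in both hit TRI-TAT genes (36). In TRL-AAG2-2 the first capital is the crosslinked base and the following capitals are the anticodon.
TRL-AAG2-2, chr6:28943622-28943713, minus strand: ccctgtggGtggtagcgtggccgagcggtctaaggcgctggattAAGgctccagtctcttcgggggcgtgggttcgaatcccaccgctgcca
TRT-TGT6-1, chr5:181191687-181191768, minus strand: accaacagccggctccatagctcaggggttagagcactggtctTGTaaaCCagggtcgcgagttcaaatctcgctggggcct
TRI-TAT2-2, chr6:27020336-27020439, plus strand: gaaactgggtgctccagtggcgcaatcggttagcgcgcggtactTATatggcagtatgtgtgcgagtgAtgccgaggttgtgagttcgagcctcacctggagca
In TRT-TGT6-1 the counted bases lie a few bases after the anticodon. TRI-TAT2-2 is longer and has an intron by the length rule given below. In its unspliced sequence the counted base lies farther from the anticodon, toward the 3′ end. In each of the 14 genes the letters of the anticodon had a match beginning at bases 33 to 35 from the 5′ edge, taken as the anticodon. Some genes had further matches elsewhere, TRI-TAT2-2 at bases 37 and 45. The B box, the downstream element of the internal promoter, was searched on both strands as GTTCNANNC and began at base 21 from the 3′ edge in all 14. The same letters occur in 7.48% of all 35116 promoter windows of this length, and a match is a description only.

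In replicate 2, 27 of 443 tRNA genes held a region, 6.09% (4.05 to 8.74). In replicate 1 the share was 1 of 443, 0.226% (0.00571 to 1.25). Over all annotated genes, which are mostly far longer, 5.31% held a region in replicate 2 and 3.88% in replicate 1. Among 4891 other genes of at most 110 bases, a set that keeps tRNA pseudogenes, the shares were 0.225% in replicate 2 and 0.0613% in replicate 1. Each of the 27 genes held a single site of 1 base, 17 on the plus strand and 10 on the minus strand.

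The gene hit in both libraries was TRT-TGT2-1, a threonine tRNA gene without an intron by its length of 73 bases (chromosome 1, 222465005 to 222465077). Its plus-strand site was at 222465046 in replicate 1, with a deposited score of 21.4, and at 222465045 in replicate 2, with a score of 147. The sites were neighbouring bases and did not coincide. The score of replicate 1 stood at rank 50.5% of that library and the score of replicate 2 at rank 89.1%. None of the other 26 sites had a replicate 1 region within 100 bases, whereas 42.9% of all replicate 2 regions had a replicate 1 region on their strand within that distance.

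The position of the site in the tRNA was similar across isotypes. The table gives no strand for these genes, so positions follow the strand of the region, and the edge reached first along it is called upstream. In the 21 genes without an intron by length the site lay at a median of base 39 from the upstream edge (lowest 36, highest 53). In the 6 genes with an intron by length it lay at a median of base 58.5 (52 to 74), so the groups overlapped only through the site at base 53 in TRD-GTC2-7. Counted from the downstream edge, the groups came together. The median was base 34 in the genes without an intron (20 to 37) and base 35.5 in those with one (28 to 38). Over all 27 genes the SD of the position was 9.41 bases from the upstream edge and 3.75 from the downstream edge. In the 21 genes without an intron the SDs were alike, 3.79 and 3.86. In the 6 with one they were 7.89 and 3.5, so the contrast lay with those 6 genes. Without TRD-GTC2-7, chosen after its value was seen, the 26 sites spanned 39 bases from the upstream edge and 11 from the downstream edge. The 20 of them in genes without an intron spanned 9 bases from either edge.

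Base 34 from the downstream edge was the most frequent, with 6 genes. These were TRA-AGC1-1, TRA-AGC5-1 and TRA-CGC4-1 (alanine), TRT-AGT4-1 and TRT-CGT1-1 (threonine) and TRW-CCA4-1 (tryptophan). Base 33 held 4 genes, both TRT-TGT genes (TRT-TGT2-1 and TRT-TGT3-1), TRI-AAT6-1 (isoleucine) and TRR-TCT1-1 (arginine), which has an intron by length. Base 35 also held 4, TRP-CGG2-1 (proline), TRN-GTT5-1 (asparagine), TRA-TGC1-1 and the longest gene hit, TRL-CAA2-1 (leucine). All 4 threonine genes therefore had their replicate 2 site at base 33 or 34, and the 5 alanine genes lay between bases 34 and 37, with TRA-CGC3-1 at 37. Base 37 was shared with TRV-CAC2-1 (valine), TRC-GCA4-1 (cysteine) and TRR-CCG2-1 (arginine), and TRW-CCA2-1 lay at base 36.

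The 5 sites nearest the downstream edge were in glutamine, glutamate, arginine and aspartate genes. TRQ-CTG5-1 and TRQ-TTG2-1, the 2 glutamine genes hit, had theirs at bases 30 and 29, and TRE-CTC2-1, the only glutamate gene hit, at base 29. TRR-TCT5-1 lay at base 28. TRD-GTC2-7 stood farthest from the rest, at base 20 (27503796 on chromosome 6), and its score of 6.04 was among the lower ones of the library, at rank 12.0%. Among the arginine genes the positions were 28, 33 and 37, so a shared amino acid did not always go with a shared position.

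Genes with an intron were called by length, at least 85 bases, or at least 100 for the leucine, serine and selenocysteine genes, whose variable arm is long. By this rule 28 genes have an intron, and they belong to tyrosine, isoleucine TAT, arginine TCT and leucine CAA, isotypes known for introns. Of the 28, 6 held a region in replicate 2, 21.4% (8.30 to 41.0), against 21 of 415 without an intron, 5.06% (3.16 to 7.63). The planned rule counted every leucine, serine and selenocysteine gene as without an intron, the hit gene TRL-CAA2-1 among them. It gave 5 of 23, 21.7% (7.46 to 43.7), against 22 of 420, 5.24% (3.31 to 7.82). The intervals overlap under the planned rule and not under the length rule, and neither difference was tested. The 6 were TRI-TAT1-1 (chromosome 19, 93 bases, score 25.5), TRI-TAT3-1 (chromosome 6, 94 bases, 18.9), TRR-TCT1-1 (chromosome 1, 85 bases, 175), TRR-TCT5-1 (chromosome 6, 87 bases, 7.89), TRL-CAA2-1 (chromosome 6, 108 bases, 12.5) and TRY-GTA3-1 (chromosome 6, 89 bases, 65.3). In the TRI-TAT1-1 and TRI-TAT3-1 genes the site was at the same base, 36 from the downstream edge. TRY-GTA3-1 had the site farthest from that edge, at base 38. Tyrosine has the most genes with an intron, 13, and 1 of them was hit, while isoleucine TAT had 2 of 5, arginine TCT 2 of 5 and leucine CAA 1 of 5.

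The number of identical copies moved with the hits. In the table, 201 tRNA genes are the only copy of their isodecoder, 222 belong to 57 isodecoders of several copies, and 20 have symbols without an isodecoder number. Of the 201 genes, 26 held a region in replicate 2, 12.9% (8.63 to 18.4), against 1 of the 222, 0.450% (0.0114 to 2.48), and 0 of the 20. The difference was seen in these same hits and was not tested. The exception was TRD-GTC2-7, whose isodecoder has 11 copies, the most of any, and which was also the gene with the outlying position. All 6 hit genes with an intron were the only copy of their isodecoder, 6 of 16 such genes (37.5%, 15.2 to 64.6), against 20 of 185 without an intron (10.8%, 6.73 to 16.2), and these intervals overlap. Both isoleucine TAT isodecoders of 1 copy were hit, and the third, TRI-TAT2 with 3 copies, was not. How reads that align to several places were treated was not given in the sources used here, and its part in these counts was not tested.

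**Figure D1:**
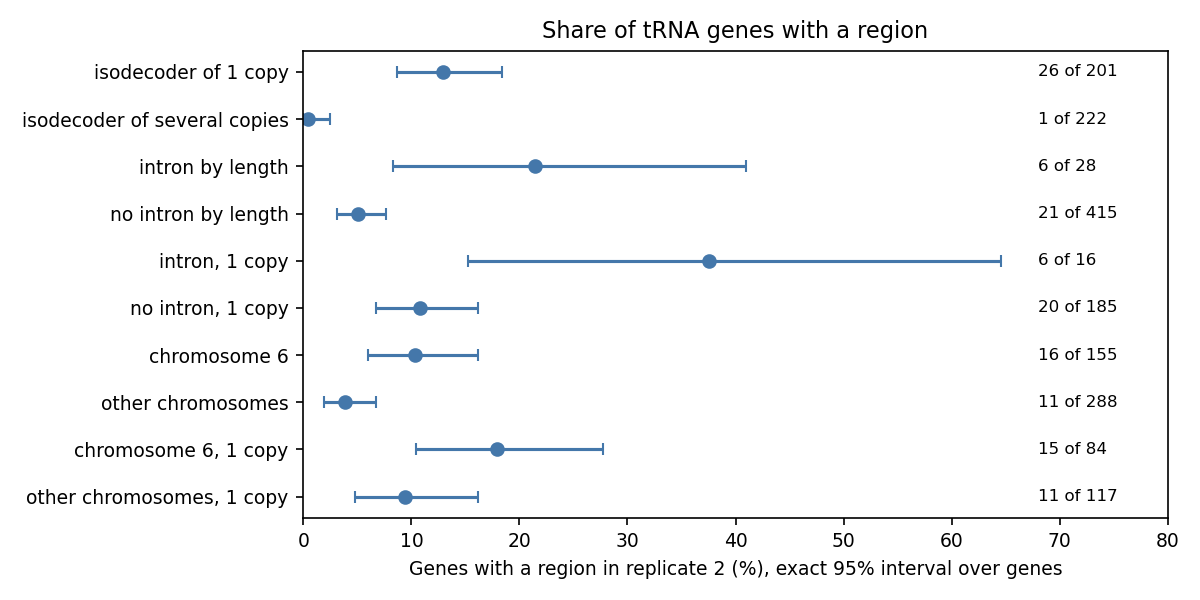
Percentage of tRNA genes with a region in replicate 2, with the exact 95% interval over genes, by number of isodecoder copies, intron by length and chromosome; the numbers at the right are genes hit of genes annotated. Genes of 1 copy stand at 12.9% and genes of several copies at 0.450%.

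By amino acid, alanine had the most genes with a region, 5 of 38, followed by threonine with 4 of 20, arginine with 3 of 26 and isoleucine with 3 of 23. Tryptophan had 2 of 7 and glutamine 2 of 19. Cysteine (1 of 29), asparagine (1 of 26), valine (1 of 30), leucine (1 of 32), proline (1 of 20), glutamate (1 of 20), aspartate (1 of 13) and tyrosine (1 of 13) had a single gene each. The other 8 groups, with 127 genes, had 0, namely glycine (33 genes), lysine (27), serine (26), phenylalanine (11), methionine (11), histidine (9), initiator methionine (8) and selenocysteine (2). Of these 127 genes 52 are the only copy of their isodecoder. All 9 histidine genes and all 8 initiator methionine genes belong to 1 isodecoder each, whereas 15 lysine and 17 serine genes are single copies without a region. The exact intervals over genes were wide, 5.73 to 43.7% for threonine and 0 to 10.6% for glycine, and they overlap.

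**Figure D2:**
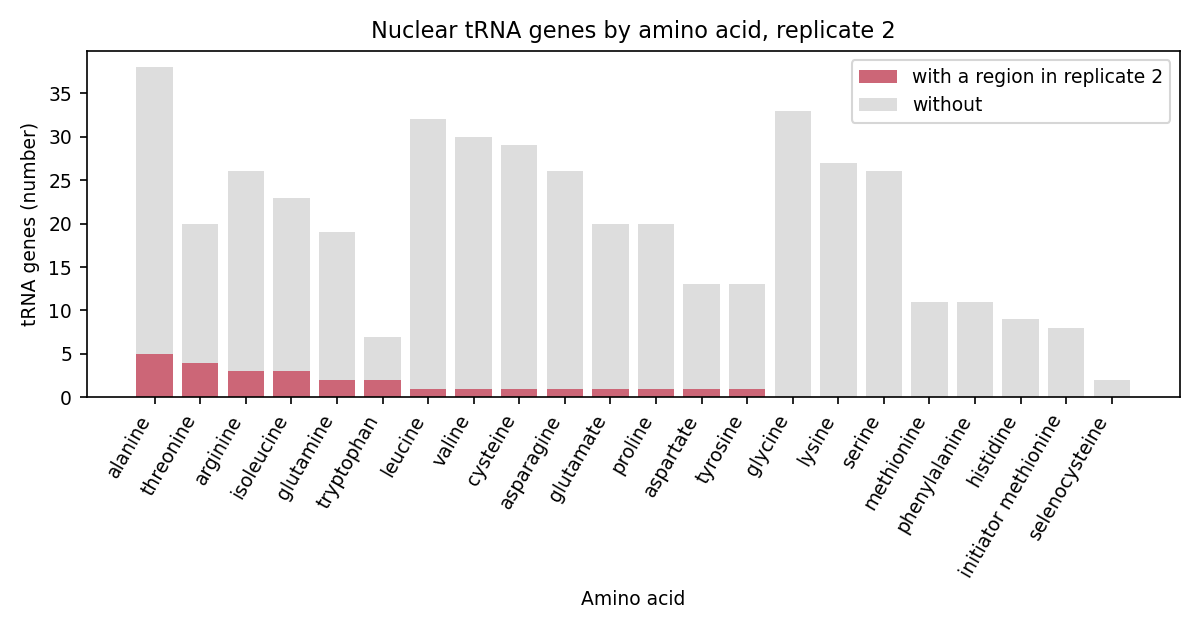
Number of nuclear tRNA genes by amino acid, with those holding a region in replicate 2 in red at the foot of each bar and those without in grey. The tallest red part is alanine with 5 genes, and 8 amino acid groups have none.

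The hits fell on 21 of the 49 anticodons. No anticodon had more than 2 hit genes. Those with 2 were alanine AGC (2 of 25 genes), alanine CGC (2 of 5), threonine TGT (2 of 6), arginine TCT (2 of 6), isoleucine TAT (2 of 5) and tryptophan CCA (2 of 7). Counting only genes of 1 copy, alanine AGC had 2 of 12, alanine CGC 2 of 5 and threonine TGT 2 of 6. Alanine and threonine were hit in each of their 3 anticodons, alanine TGC through TRA-TGC1-1, whose score of 2.28 was the lowest of the 27.

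Chromosome 6 carries the largest group of human tRNA genes, 155 of the 443, and 144 of these lie between 26 and 30 Mb. It held 16 of the 27 hit genes, 59.3%, all of them in that stretch. The share of chromosome 6 genes with a region was 10.3% (6.02 to 16.2), against 3.82% (1.92 to 6.73) on the other chromosomes. Among genes of 1 copy the shares were 15 of 84 (17.9%, 10.4 to 27.7) and 11 of 117 (9.40%, 4.79 to 16.2). In both comparisons the intervals overlapped. The 16 genes ran from TRY-GTA3-1 at 26577104 to TRA-AGC1-1 at 28796035, over 2.22 Mb. The last 7 started at or beyond 28488993, among them TRA-AGC5-1, TRA-CGC4-1, TRA-TGC1-1 and TRA-AGC1-1, 4 alanine genes. The closest pair of sites, in TRA-TGC1-1 and TRA-AGC1-1, was 6.19 kb apart, and the widest gap was 762 kb. Chromosome 1, with 98 genes, had 4 hits, chromosome 17 had 3 of 33, and chromosomes 2, 12, 14 and 19 had 1 each. Chromosomes 16 and 7, with 26 and 22 tRNA genes, had 0 (0 to 13.2% and 0 to 15.4%), as did further chromosomes with fewer genes, such as 5 and 11.

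Scores of the tRNA sites lay on both sides of the library median. The score is the authors' value for a region on a scale that was not given in the sources used here, so it serves only to rank regions within a library. The 27 scores of replicate 2 ran from 2.28 to 216 with a median of 18.9, where all regions had a median of 21.3 and quartiles of 12.5 and 56.9. At or above the median stood 13 of the 27, at or above the upper quartile 7, and below the lower quartile 8. The 5 highest were TRP-CGG2-1 (216, rank 91.9%), TRR-TCT1-1 (175), TRT-TGT2-1 (147), TRT-TGT3-1 (78.7) and TRA-CGC4-1 (72.4). TRP-CGG2-1 is a proline tRNA gene on chromosome 6 (27091742 to 27091813) with its site at base 38 of 72 from the upstream edge. TRT-TGT3-1, on chromosome 14 (20613790 to 20613862), has the anticodon of TRT-TGT2-1, and its replicate 2 site was at the same base, 41 from the upstream edge and 33 from the downstream edge.

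**Figure D3:**
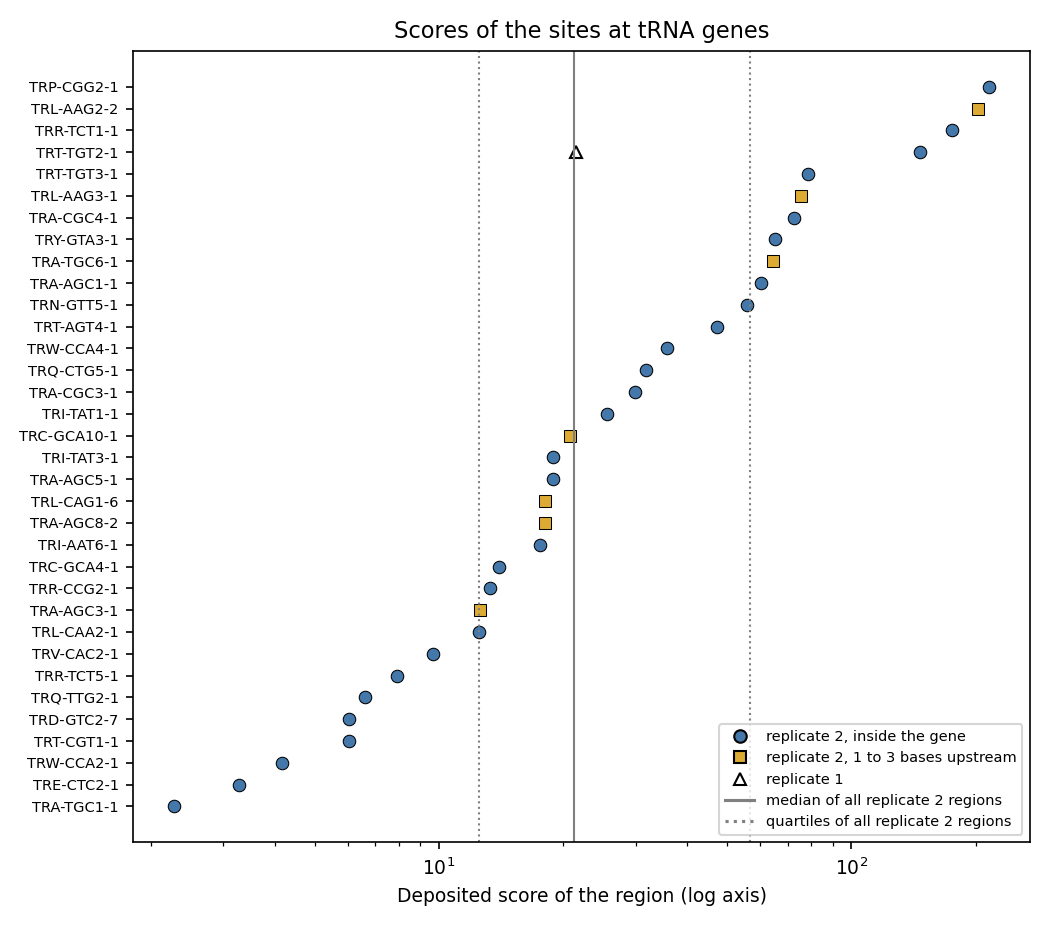
Deposited score (log axis) of the 34 sites inside tRNA genes (circles) or 1 to 3 bases upstream (squares) in replicate 2, and of the replicate 1 site (triangle); grey lines are the median and quartiles of all replicate 2 regions. Sites inside genes run from 2.28 to 216 and lie on both sides of the median of 21.3.

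A further set of sites lay just outside the annotated genes. Within 50 bases of a tRNA gene but not in it, replicate 2 had 8 sites, all of them upstream, with 0 downstream, and replicate 1 had 0. Upstream and before again follow the strand of the region. Among these genes the strand of the tRNA itself was read only for TRL-AAG2-2. Of the 8, 1 lay 1 base before the gene (TRA-TGC6-1), 4 lay 2 bases before it (TRL-AAG2-2, TRL-AAG3-1, TRL-CAG1-6 and TRA-AGC8-2) and 2 lay 3 bases before it (TRA-AGC3-1 and TRC-GCA10-1). The eighth, at TRP-TGG3-3, was 26 bases away and had a score of 0.0665. Of 4891 other genes of at most 110 bases, 0.0204% had a region outside but within 10 bases in replicate 2, against 7 of the 443 tRNA genes. No gene had both a site inside and an upstream site.

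Among these 7 sites TRL-AAG2-2, whose sequence is printed above, had the highest score, 203 (rank 91.5%), at 28943705 on the minus strand of chromosome 6, which is the strand of the tRNA by its B box and anticodon. TRL-AAG3-1, also a leucine AAG gene, followed with 75.4, and TRA-TGC6-1 with 64.4. The other 4 scores were between 12.6 and 20.8, and TRL-CAG1-6 and TRA-AGC8-2 had the same score of 18.0, which 259 regions of the library share. By isotype 3 of the 7 were leucine, 3 alanine and 1 cysteine, and 4 lay on chromosome 6. Several copies of the isodecoder existed for 3 of the 7, namely TRL-CAG1-6 (7 copies), TRL-AAG2-2 (4) and TRA-AGC8-2 (2), as compared with 1 of the 27 genes with a site inside. None of the 7 had an intron by length. Leucine thus had 3 genes with an upstream site and 1, TRL-CAA2-1, with a site inside. The groups were set after the positions were seen, so the difference was not tested.

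Genes of the tRNA pathway were counted in the same way. Of 146 genes for the transcription, processing, export, modification and charging of tRNA and for other RNA polymerase III products, 3 held a region in replicate 1 (2.05%) and 7 in replicate 2 (4.79%), where 3.88% and 5.31% of all genes did. These shares were not matched for gene length. The median length was 0.107 kb for the 20 other RNA polymerase III transcripts and 13.9 to 37.7 kb for the remaining lists. POLR3B, the second-largest subunit of RNA polymerase III, was the only one of 13 subunit genes hit, with a site at 106508664 on chromosome 12 in both libraries (scores up to 83.0 and 130). XPOT, the tRNA export receptor, was hit at 64421732 on the same chromosome in both, with scores of 1.97 and 198. In replicate 2 alone sites lay in GTF3C1, a subunit of the factor that binds the internal promoter (1 of 12 transcription factor genes), in DDX1, a helicase of the tRNA ligase complex (1 of 25 processing genes), and in the modification genes DUS4L, METTL2B and TRMT5 (3 of 48). IARS1, the isoleucyl-tRNA synthetase, was hit in replicate 1 alone (1 of 24 charging genes). None of the 20 other RNA polymerase III transcripts was hit in either library, and none of the 22 mitochondrial tRNA genes. The pseudogenes RNU6-513P, RNU6-741P and RNA5SP61 were not among the 20. RNU6-513P held a region in both libraries, and RNU6-741P and RNA5SP61 did so in replicate 2.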

How the data were processed

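Regions of 2 Cas9 irCLIP libraries were used as deposited, 1 file per library with chromosome, start, end, strand, single-site scores and their sum. The authors deposited the score without a stated scale. Per the submitters' processing notes the build was hg38 and the tools included STAR 2.5.2 and Bowtie2 2.3.5, with no role given. What called the regions, and how multiply aligned reads were handled, was not given in the sources used here.

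Starts were made 1-based. A tRNA gene was counted as hit when a region overlapped its RefSeq span (GRCh38.p14) by at least 1 base, on either strand. The table has no strand, exons or genome sequence, so the planned strand-specific count and intron-removed or anticodon-based positions were not run and introns were called by length. Copies were counted from symbols. Every tRNA gene with a region is named, and from each related list the genes hit in both libraries and otherwise up to 3 in alphabetical order. Members and gene lists were chosen with earlier results of these data known, so no test was made. Counting was tested on planted sites. Python 3.11.15, pandas 2.3.3 and SciPy 1.17.1 were used.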

Additional observations from a re-analysis of the deposited data

How the results depend on the processing

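Of 22 alternative values, 17 stayed within 1.5 times the count or within the spread of the main value. Several of the 17 could not differ, since the only gene of replicate 1 was also hit in replicate 2 and every site was a single base. All chromosome 6 hits lay on the short arm, and all hit genes with an intron were of 1 copy. The positions from the upstream and downstream edges are different counts of the same sites. Requiring a score at or above the library median left 13 tRNA genes in replicate 2, and the upper quartile left 7 in replicate 2 and 0 in replicate 1. Asking for the same base in both libraries gave 0 genes, and for a site within 1 base 1 gene. The number of genes hit in either library ran from 1 to 27 when a replicate was left out, so it rests on replicate 2. Adding 10 bases to each side of the gene gave 34 genes, and 50 bases gave 35. Regions at or above the median put 46.2% of hit genes on chromosome 6, and genes of 1 copy 57.7%. The strand-matched count and the positions with the intron removed or from the anticodon were not run, since the table has neither strand nor exons. Counting from the downstream edge and restricting to genes of 1 copy were chosen after seeing the data. No paired analysis was possible because both libraries belong to 1 group. Depth is unknown, so an empty gene means only that no region was listed there.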

Other observations

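Other short genes gave a few values beside those of the tRNA genes. Of 87 tRNA pseudogenes, TRF-GAA8-1 (phenylalanine, chromosome 6, 78958293 to 78958365) held a region, in replicate 2, with a score of 27.4, at base 7 from the upstream edge and base 67 from the downstream edge. Of the 4891 other genes of at most 110 bases, 3 held a region in replicate 1 and 11 in replicate 2, TRF-GAA8-1 among the 11. The 3 of replicate 1, namely IGKJ4, an immunoglobulin joining segment, MIR548AW, a microRNA gene, and RNU6-513P, a U6 pseudogene, were also hit in replicate 2.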
